A study of Zea mays with 29 samples.

Results

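The genes described here are 40 maize genes assigned by identifier to 1L, the long arm of chromosome 1, whose transcript level changed most strongly when the number of 1L copies changed by a factor of 2. They were chosen by measured values. Candidates were the 1957 gene identifiers from Zm00004b003312 to Zm00004b005268, a run of numbers taken to stand for 1L. Of these, 705 had a mean of at least 5 CPM (read counts scaled to a common library total) in both count tables. For each candidate, 3 differences of log2(group mean CPM + 0.5) were taken: tetrasomic minus diploid, disomic haploid minus haploid, and diploid minus monosomic. The smallest of the 3 was the gene's score, and the 40 highest scores, out of 40306 identifiers listed in all, made the set. Trisomic libraries did not enter the score, but they entered the filter, whose mean runs over all libraries of a table. Without them Zm00004b003818, Zm00004b005056, Zm00004b004512 and Zm00004b004463 fell below 5 CPM in series 2, as did 7.07% of the other candidates, so these 4 members (10%) passed only through the trisomics.

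In an aneuploid plant, a gene on the varied segment often gives transcript in proportion to its copies, which is called a gene dosage effect. Some genes on the segment stay near the diploid level, which is called dosage compensation, and others exceed the copy ratio. Regulators that act in complexes are thought to be sensitive to such imbalance, and genes elsewhere in the genome can respond in trans. The tables give identifiers without names, products or positions, and 0 of the 40306 occur in the maize B73 reference table used here. No role can therefore be given to any member, the markers of leaf identity could not be checked, and no position on the chromosome was read from an annotation.

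Poly(A) RNA came from leaf tissue of Zea mays in 2 dosage series that had separate diploid controls. Series 1 held 4 diploid, 5 trisomic (3 copies of 1L in a diploid genome), 3 tetrasomic (4 copies), 3 haploid (1 copy of the whole genome) and 2 disomic haploid libraries (2 copies of 1L in a haploid genome). Series 2 held 4 monosomic (1 copy of 1L in a diploid genome), 3 diploid and 3 trisomic libraries. GEO describes all libraries as biological replicates, and neither the inbred background nor the age of the plants was stated. Library totals ran from 13199571 to 19860440 counted reads, and the members' values below are CPM unless stated. Diploid replicate 1 of series 1 stood apart: in it the members lay at a median of 0.27 (log2) above the mean of the diploids, against -0.16 to -0.05 in the other diploids. The remaining candidates moved with it, at 0.19 against -0.10 to -0.01. In leaf RNA, more transcript per cell and more cells of one type cannot be told apart.

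The 3 differences that chose the members are given as a description. The median member was 2.55 times as high in tetrasomics as in diploids, 2.47 times as high in disomic haploids as in haploids, and 2.13 times as high in diploids as in monosomics, where the copy ratio is 2 each time. Over the other candidates the medians were 1.97, 1.97 and 1.67 times. The score exceeded 1, the log2 of the copy ratio, in 35 members, and the last 5 lay between 0.98 and 1.00. The limiting difference was diploid minus monosomic for 30 members, disomic haploid minus haploid for 7 and tetrasomic minus diploid for 3. Only Zm00004b004451 and Zm00004b004262 exceeded a 3-fold difference in all 3. At the limit of the set stood Zm00004b003641 (score 0.978) and Zm00004b003776 (0.977) inside it, and Zm00004b004135 (0.976) and Zm00004b004935 (0.973) outside it.

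The excess over the copy ratio depended on the scale. CPM divides by all counted reads. Scaling by TMM (trimmed mean of M-values), which follows the bulk of genes, moved tetrasomic minus diploid by -0.11 (log2), disomic haploid minus haploid by -0.06 and diploid minus monosomic by 0.15. The shifts thus differed in sign, and their cause was not tested. With TMM the members' medians were 1.26, 1.25 and 1.24 (log2) and those of the other candidates 0.87, 0.92 and 0.88, so the members' excess was close to equal in the 3 comparisons. Ranking on TMM-scaled CPM kept 27 of the 40 members.

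**Figure D1:**
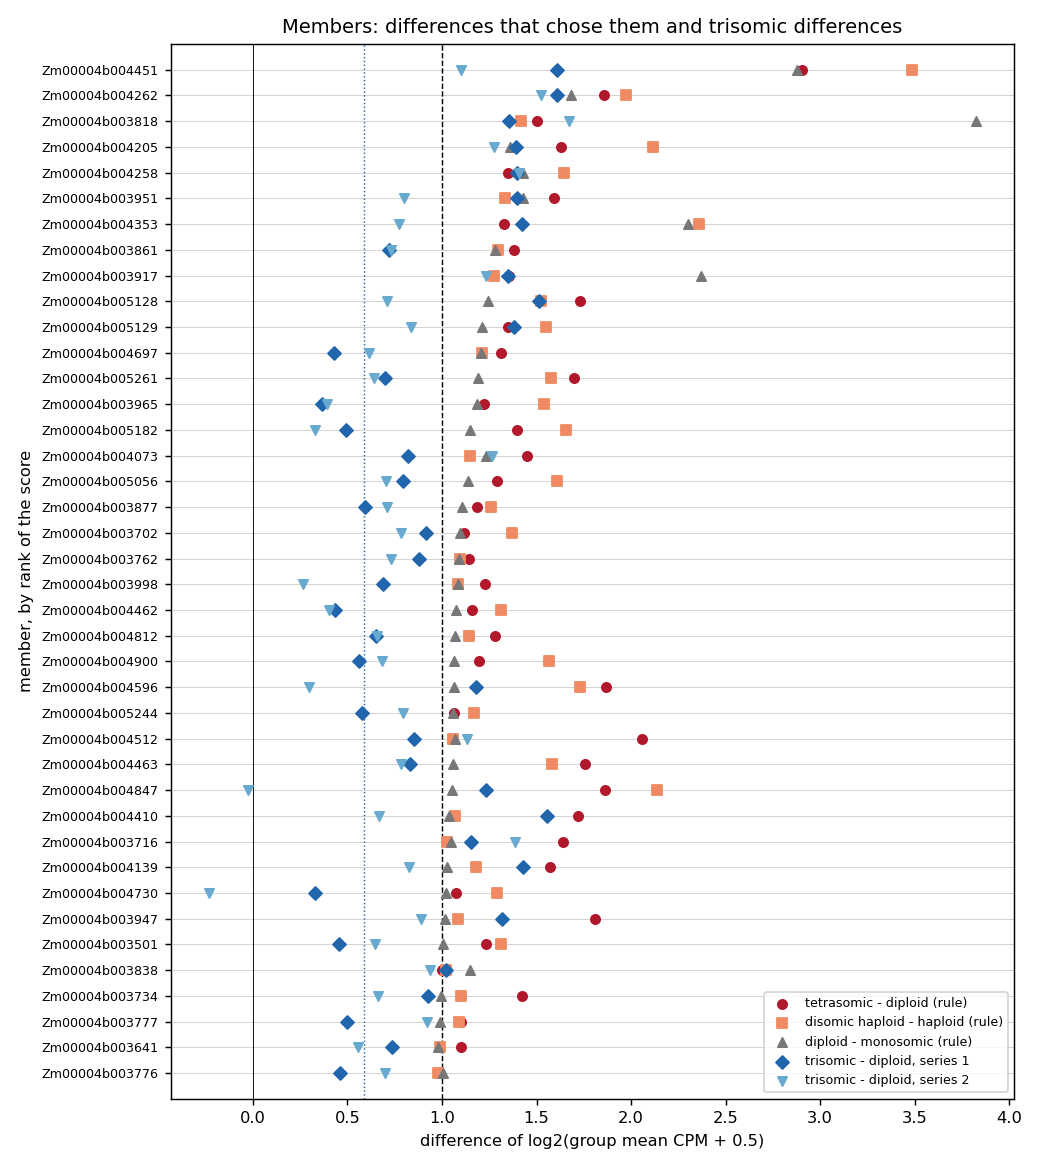
Each row is 1 of the 40 members by rank of the score, and the horizontal axis is the difference of log2(group mean CPM + 0.5) for the 3 comparisons of the rule and for the trisomic comparison of each series. The dashed line marks the log2 of a copy ratio of 2 and the dotted line that of 3 to 2 (0.58); the trisomic symbols spread from -0.23 to 1.67, and 4 members lie left of the dotted line in both series.

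Zm00004b004451 had the highest score, 2.88. In series 1 its haploids stood at 3.74, 2.46 and 3.49 CPM and its disomic haploids at 43.9 and 38.8. Its diploids stood at 26.2, 2.28, 5.12 and 7.31 CPM, its trisomics at 16.1, 39.4, 34.3, 38.2 and 32.8, and its tetrasomics at 91.7, 64.1 and 83.7. The group means were higher with each added copy of 1L in the diploid genome, and the only overlap was that diploid replicate 1 lay above trisomic replicate 1. In series 2 the monosomics stood at 0.564, 1.11, 0.638 and 1.86 CPM, the diploids at 14.6, 9.55 and 8.4, and the trisomics at 19.2, 15.6 and 36.8, with no overlap between neighbouring groups. Against diploids, the trisomic log2 fold change was 1.66 in series 1 (SE 0.47, adjusted p = 0.0881 in edgeR, n = 5 and 4) and 1.09 in series 2 (SE 0.38, adjusted p = 0.341 in edgeR, n = 3 and 3), and neither passed the threshold of 0.05. Without diploid replicate 1 the series 1 value was 2.58 with an adjusted p of 0.00652 in edgeR. Over all named members, both series and all alternatives, a call was gained in 26 cases and lost in 38.

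For Zm00004b004262, second by score, the trisomic estimates of the series were close. Its series 1 diploids stood at 28.6, 23.3, 29.0 and 19.2 CPM and its trisomics at 67.1, 69.8, 74.7, 112.0 and 63.1, with no overlap. Its tetrasomics, at 103.1, 90.1 and 82.2 CPM, overlapped the trisomics. In series 2 it stood at 6.60, 4.87, 4.04 and 4.63 CPM in monosomics, 10.1, 23.6 and 18.1 in diploids and 53.9, 52.9 and 45.1 in trisomics, again with no overlap. The trisomic log2 fold change was 1.58 in series 1 (SE 0.28, adjusted p = 0.0154 in edgeR) and 1.48 in series 2 (SE 0.28, adjusted p = 0.071 in edgeR). These are 2.99 and 2.80 times the diploid level, against a copy ratio of 1.5. Both 95% intervals, from 0.98 to 2.18 and from 0.86 to 2.11, lay above 0.58, the log2 of that ratio, and it was the only member for which this held in both series.

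Zm00004b004258, 4 identifiers before it, also had close trisomic estimates. Its series 1 diploids stood at 20.4, 10.4, 13.6 and 9.41 CPM and its trisomics at 25.5, 25.4, 32.2, 57.0 and 40.9. Its series 2 diploids stood at 5.73, 11.9 and 10.3 CPM and its trisomics at 23.4, 23.5 and 29.7. Trisomics and diploids overlapped in neither series. The log2 fold changes were 1.39 in both (SE 0.34 and 0.41; adjusted p = 0.0511 and 0.246 in edgeR).

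Zm00004b003818 and Zm00004b004205, next by score, varied more within a dose. Zm00004b003818 stood at 11.3, 12.9, 9.06 and 11.2 CPM in series 1 diploids and at 31.0, 36.5, 27.2, 14.4 and 36.5 in trisomics, without overlap but with trisomic replicate 4 close to the diploids. Its estimates were 1.27 in series 1 (SE 0.65, adjusted p = 0.387 in edgeR) and 1.65 in series 2 (SE 1.00, adjusted p = 0.718 in edgeR). Zm00004b004205 had series 1 diploids at 15.9, 3.42, 2.98 and 3.75 CPM and trisomics at 8.90, 25.5, 13.1, 22.3 and 19.5, and these overlapped through diploid replicate 1. In series 2 its diploids stood at 15.98, 28.8 and 31.0 CPM and its trisomics at 52.7, 58.5 and 74.1, without overlap. Its estimates were 1.44 (SE 0.46, adjusted p = 0.135 in edgeR) and 1.22 (SE 0.30, adjusted p = 0.174 in edgeR).

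**Figure D2:**
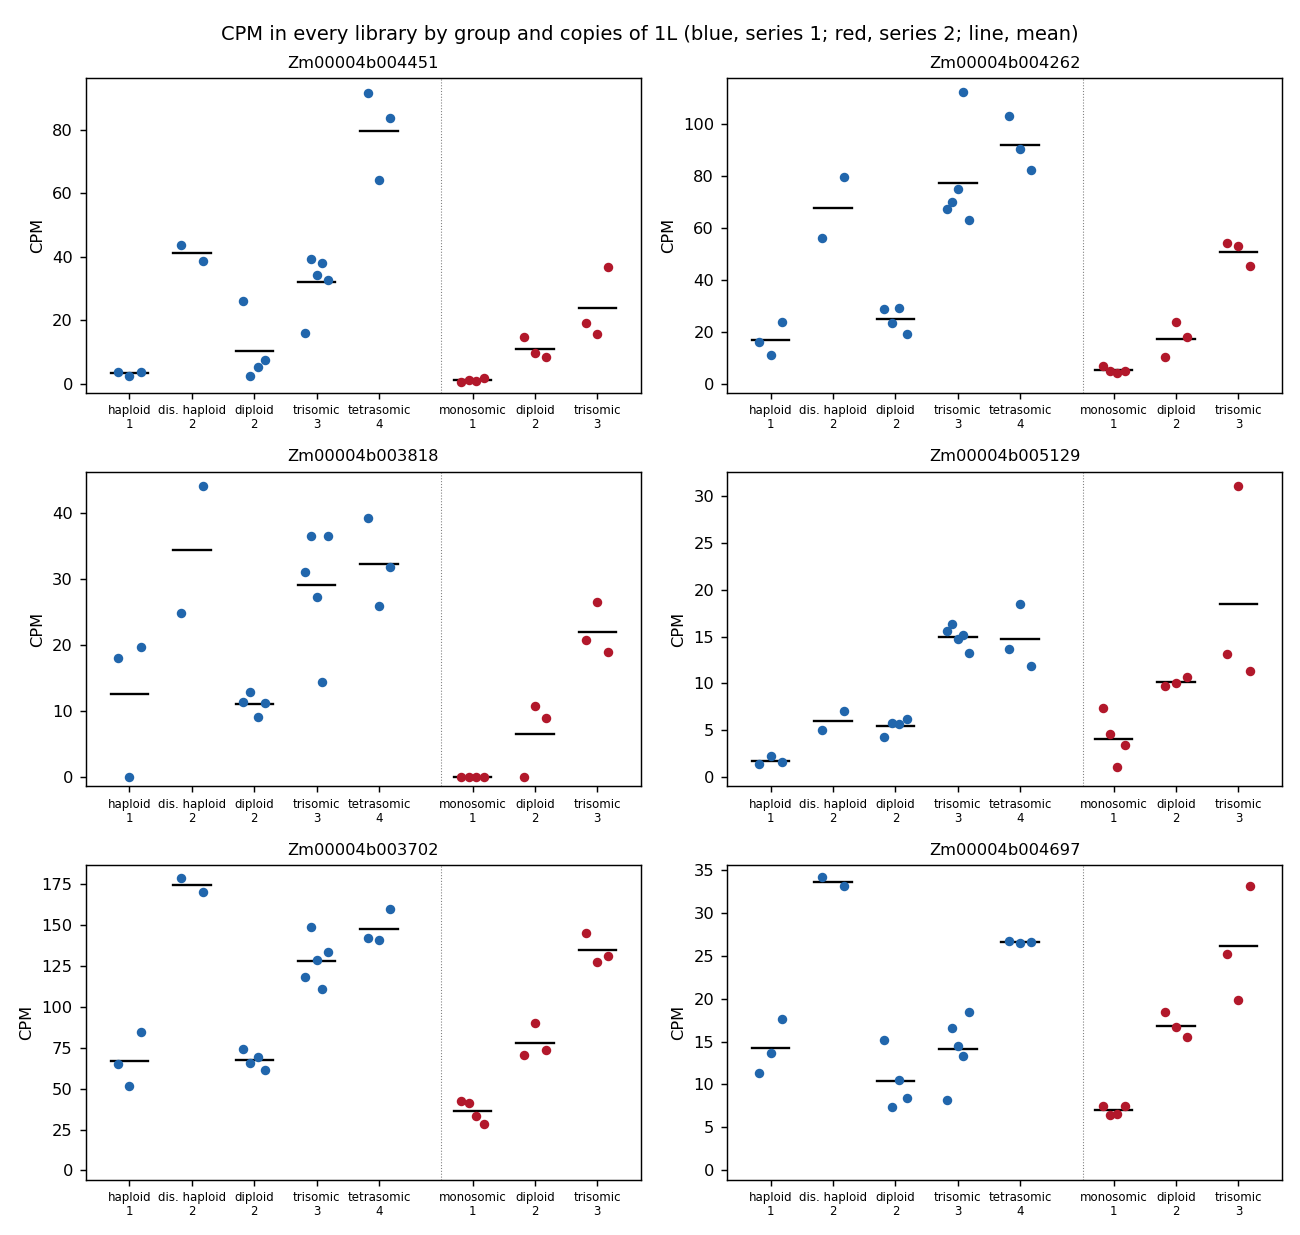
CPM of 6 members in every library, by group and by copies of 1L (number under the group name); blue points are series 1, red points series 2 and lines group means. Zm00004b004451 and Zm00004b004697 gain most between trisomics and tetrasomics, whereas Zm00004b005129 is as high in trisomics (15.0) as in tetrasomics (14.7), and Zm00004b003818 has libraries at or near 0 in 3 groups.

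The question put to the trisomics was whether genes that exceed a 2-fold copy change also exceed the 1.5-fold one. In series 1 the members' log2 fold changes in trisomics against diploids in edgeR ran from 0.28 to 1.66 with a median of 0.82 or 1.76-fold. On log2(mean CPM + 0.5) the difference was positive in all 40 members and in 94.9% of the other candidates. Over the other candidates the median was 0.50 or 1.42-fold, and over all 22435 genes tested it was 0.00. The trisomics against diploids share the diploid libraries with the rule, which favoured genes low in these diploids, and this pushes the members' difference upward. By library, the members' median lay 0.73 to 1.10 (log2) above the mean of the diploids in the 5 trisomic libraries, against 0.36 to 0.79 for the other candidates.

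In edgeR's quasi-likelihood test, 11 of the 40 members (27.5%) were called higher in series 1 trisomics and 0 lower, at a Benjamini-Hochberg adjusted p below 0.05. Of all genes tested 1.22% were called higher, and of the other candidates 17.3%. The count rested on few libraries. It was 21 without diploid replicate 1, and 3, 7 and 1 without diploid replicates 2, 3 and 4. Without trisomic replicates 1, 2 and 3 it was 17, 6 and 7. It was 24 with DESeq2, 7 without a count filter and 7 with the compared groups alone. The shares of other genes called were not counted under these alternatives. A 95% interval wholly above the log2 copy ratio is not adjusted for the number of genes. It was found for 9 members (22.5%), 3.76% of the other candidates and 1.11% of all genes tested, and for 6 to 13 members when single libraries were left out. The interval held the copy ratio for the other 31 members. Every trisomic library lay above every diploid one for 17 members (42.5%), compared with 28.4% of the other candidates and 3.84% of all genes tested.

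Beside Zm00004b004262, 5 members had the smallest p in series 1. Zm00004b005129 had diploids at 4.29, 5.76, 5.63 and 6.17 CPM and trisomics at 15.6, 16.3, 14.8, 15.2 and 13.2. The trisomics were alike and far above the diploids, with a log2 fold change of 1.37 (SE 0.22, adjusted p = 0.0104 in edgeR). Zm00004b004410 had diploids at 142.9, 87.2, 129.7 and 118.4 CPM and trisomics at 234.4, 426.6, 343.4, 264.2 and 495.1. It rose by a log2 of 1.45 (SE 0.26, adjusted p = 0.0163 in edgeR) without overlap, although its trisomics differed by a factor of over 2 among themselves.

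Zm00004b003951, named for its score, had diploids at 64.2, 32.5, 40.1 and 52.4 CPM and trisomics at 70.4, 154.3, 86.3, 135.5 and 180.3. Its log2 fold change was 1.32 (SE 0.25, adjusted p = 0.0221 in edgeR), and its trisomics also lay above all diploids. Zm00004b003947 rose by 1.26 (SE 0.22, adjusted p = 0.0154 in edgeR), from diploids between 6.69 and 9.17 CPM to trisomics between 14.4 and 27.8. These 4 members and Zm00004b004262 had intervals above the copy ratio.

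For the other two of these 5 members the interval held the ratio. Zm00004b003702 had diploids at 74.1, 65.8, 69.6 and 61.4 CPM and trisomics at 118.3, 149.0, 128.6, 110.8 and 133.3, a tight rise of 0.83 (log2, SE 0.15, adjusted p = 0.0154 in edgeR). Zm00004b003762 had diploids at 11.2, 6.23, 6.64 and 6.23 CPM and trisomics at 9.88, 17.1, 14.0, 12.9 and 17.8. Its rise was 0.84 (SE 0.15, adjusted p = 0.0168 in edgeR), and diploid replicate 1 lay above trisomic replicate 1.

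In series 2 the members' log2 fold changes in trisomics ran from -0.29 to 1.66 with a median of 0.69 or 1.62-fold. The other candidates had a median of 0.49 or 1.41-fold and all 21825 genes tested one of -0.01. Here the score favoured genes high in the diploids, which pushes the members' trisomic difference downward. The CPM filter, which 4 members passed only through these trisomics, pushes it upward. With a filter without trisomics, the median of the 40 genes chosen was 0.67. The median over members lay 0.74, 0.73 and 0.74 (log2) above the diploid mean in the 3 trisomic libraries, against 0.50, 0.55 and 0.56 for the other candidates.

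No member was called in series 2 in edgeR: 0 of 40 were higher or lower at an adjusted p below 0.05, while 28 (70%) had an interval above 0, that is an unadjusted p below 0.05, against 52.3% of the other candidates. Among these 28, Zm00004b005056 and Zm00004b004463 passed the CPM filter only through the series 2 trisomics, so for them this is a description. DESeq2 called 14 and limma-trend 0, and the shares of other genes called by these tools were not counted. Of all genes tested 0.247% were called higher in edgeR, and of the other candidates 0.902%. An interval wholly above the copy ratio was found for 2 members (5%), Zm00004b004262 and Zm00004b004073, against 1.95% of the other candidates and 0.793% of all genes tested. The count of such members was 6 with the compared groups alone, 4 with DESeq2 and 1 without diploid replicate 1 or trisomic replicate 1. Every trisomic library lay above every diploid one for 31 members (77.5%), against 67.5% of the other candidates and 13.4% of all genes tested, so on this measure the members were close to the other candidates. The 31 include Zm00004b003818, Zm00004b005056 and Zm00004b004463, which passed the CPM filter only through these trisomics.

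The largest series 2 estimates beside those of Zm00004b004262 and Zm00004b004258 were those of Zm00004b003818 and Zm00004b003716. Zm00004b003818 passed the CPM filter only through its series 2 trisomics, so its estimate is a description. Zm00004b003716 had diploids at 10.2, 19.0 and 10.6 CPM and trisomics at 44.8, 33.6 and 28.2, a log2 fold change of 1.36 (SE 0.36, adjusted p = 0.204 in edgeR). In series 1 its diploids stood at 20.5, 25.4, 20.3 and 18.9 CPM and its trisomics at 14.4, 61.4, 45.4, 62.6 and 55.9. There 4 trisomics lay above all diploids and trisomic replicate 1 below all of them, and the change of 1.07 (SE 0.34, adjusted p = 0.124 in edgeR) was 1.32 with an adjusted p of 0.0124 without that library. Zm00004b004073, outside the naming rule, had series 2 diploids at 13.5, 15.5 and 11.2 CPM and trisomics at 42.9, 32.1 and 23.6 (log2 fold change 1.25, SE 0.23, adjusted p = 0.0653 in edgeR).

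**Figure D3:**
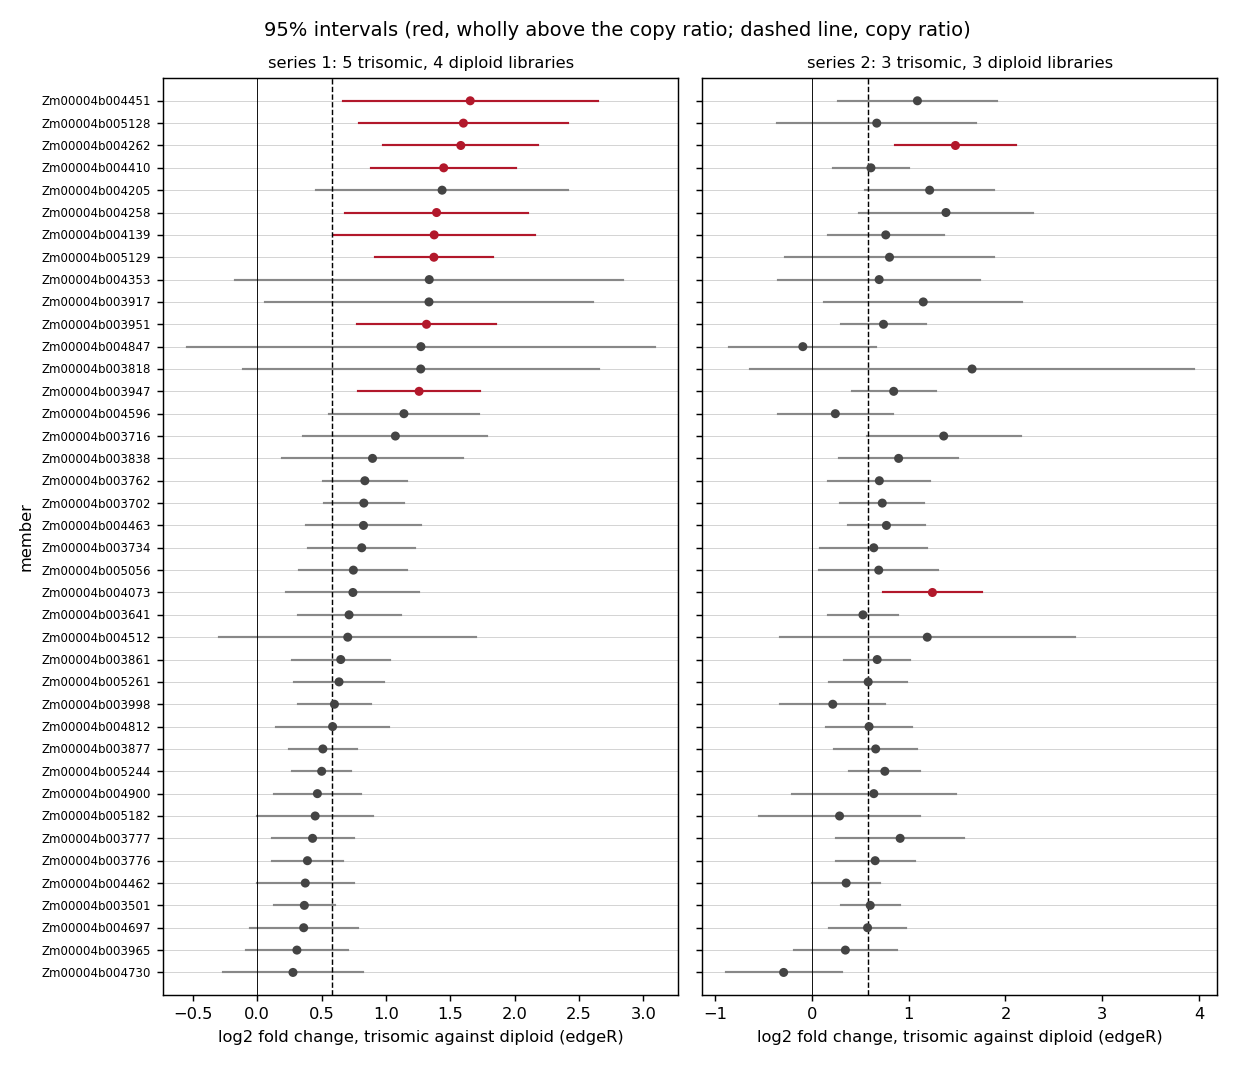
Log2 fold change of each member in trisomics against diploids with its 95% interval in edgeR, for series 1 on the left and series 2 on the right, members ordered by the series 1 value. Red intervals lie wholly above the log2 copy ratio (dashed), in 9 members in series 1 and 2 in series 2.

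At the other end stood the 4 lowest estimates in series 2. Zm00004b004730 had diploids at 16.1, 18.8 and 10.5 CPM and trisomics at 12.5, 11.7 and 14.3, with a log2 fold change of -0.29 (SE 0.27, adjusted p = 0.872 in edgeR) and an interval from -0.89 to 0.31. It was the only member whose interval lay below the copy ratio, and the share of other genes with such an interval was not counted. Its monosomics stood at 7.84, 6.92, 9.07 and 4.98 CPM, below all diploids, a difference that the rule favoured. Its diploid and trisomic libraries of this series overlapped. In series 1 its trisomic change was 0.28 (SE 0.26, adjusted p = 0.675 in edgeR), with tetrasomics at 52.1, 39.2 and 64.7 CPM above all diploids, which lay between 19.0 and 33.4.

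Zm00004b004847 had series 2 diploids at 17.5, 36.3 and 23.7 CPM and trisomics at 23.2, 27.4 and 25.6, a change of -0.09 (SE 0.35, adjusted p = 0.98 in edgeR) whose sign turned to 0.24 without diploid replicate 2. In series 1 its diploids stood at 40.9, 0.268, 11.4 and 19.8 CPM and its haploids at 2.71, 10.1 and 78.4, so that its level varied widely among plants of the same dose. Zm00004b003998 was steadier. Its series 1 diploids lay between 103.0 and 125.7 CPM and its trisomics between 169.8 and 225.9, a rise of 0.60 (SE 0.13, adjusted p = 0.0371 in edgeR), while in series 2 the change was 0.22 (SE 0.25, adjusted p = 0.911 in edgeR). Zm00004b004596 rose by 1.14 in series 1 (SE 0.27, adjusted p = 0.0499 in edgeR) and its series 2 change was 0.24 (SE 0.27, adjusted p = 0.908 in edgeR). The differences between the series were not tested.

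On log2(mean CPM + 0.5), 26 members exceeded the copy ratio in trisomics of both series, 4 in series 1 alone, 6 in series 2 alone and 4 in neither. Among the other candidates 26.5% exceeded it in both. A difference of more than 2-fold in both series was seen in 7 members (17.5%) and 2.41% of the other candidates. The 26 include Zm00004b003818, Zm00004b005056, Zm00004b004512 and Zm00004b004463, which passed the CPM filter only through the series 2 trisomics. Zm00004b003818 is also among the 7. Both comparisons share diploids with the rule as well, so these counts and shares are a description.

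**Figure D4:**
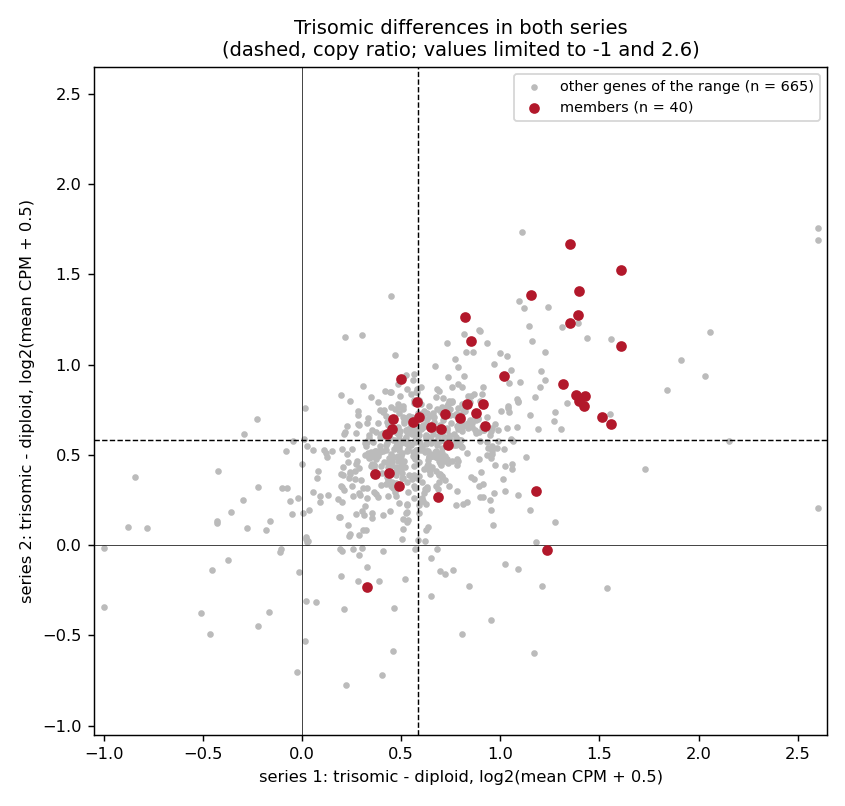
Trisomic minus diploid difference of log2(group mean CPM + 0.5) in series 1 (horizontal) and series 2 (vertical) for the 40 members (red) and the other candidates (grey), with values limited to between -1 and 2.6 for display. Dashed lines mark the log2 copy ratio of 0.58. On both axes 26 members lie above it, among them the 4 that passed the CPM filter only through the series 2 trisomics.

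To take the shared diploids out of the score, an alternative set of 40 genes was ranked for each series without any library of its trisomic comparison. The CPM filter still included those libraries. These sets and the filters below were added after the data had been seen. For series 1, genes were ranked by the smaller of disomic haploid minus haploid and diploid minus monosomic, and 29 of the 40 were members. Their median log2 fold change in series 1 trisomics was 0.68, against 0.51 for the rest of the candidates. They were called higher in 9 cases (22.5%, against 17.6%), and 6 intervals (15%, against 4.21%) lay above the copy ratio. For series 2, genes were ranked by the smaller of tetrasomic minus diploid and disomic haploid minus haploid, and 10 were members. Their median in series 2 trisomics was 0.65, against 0.50, with 1 called and 3 intervals (7.5%, against 1.8%) above the ratio. The excess over the other candidates was thus smaller than the members' own in series 1 (0.82 against 0.50) and in series 2 (0.69 against 0.49), and in the same direction. With the compared libraries left out of the filter too, the chosen genes had a median of 0.68 in series 1 trisomics, against 0.505 in the rest, and of 0.59 in series 2 trisomics, against 0.49. The value of 0.59 lies close to 0.58, the log2 of the copy ratio. Of the 40 genes chosen for series 2 in this way, 6 were members, 1 was called higher and 3 had intervals above the ratio. With the original score and a filter without trisomics, 36 members were kept, and the medians were 0.78 in series 1, against 0.50, and 0.67 in series 2, against 0.48. These sets share libraries of the other dose groups with the rule, and no p is given.

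In the monosomics, the 40 genes ranked on series 1 alone had a median diploid minus monosomic difference of 0.82 (log2), against 0.75 in the rest, and 10 of them (25%) exceeded 1 against 19.2% of the rest.

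Between 2 and 4 copies the members differed among themselves in where the increase fell. If transcript rose by an equal amount with each copy, trisomics would hold 50% of the rise in CPM from diploids to tetrasomics. Over the members the median share was 49.3%, with quartiles of 35.3% and 78.7%, and over the other candidates 48.2%, with quartiles of 35.6% and 65.7%. The share lay below 33% in 10 members (25%) and above 67% in 14 (35%), against 22% and 24.1% of the other candidates. The share is built on the diploid and tetrasomic means that the rule used, and in the other candidates the rise it divides by can be near 0, so the sets are not comparable on it and no difference is read from these shares.

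The trisomic mean reached the tetrasomic one in 10.7% of the other candidates and in 4 members (10%): Zm00004b004258, Zm00004b004353, Zm00004b005129 and Zm00004b003838. Zm00004b003838 stood at 8.82 ± 2.64 CPM in diploids (SD, n = 4), 18.4 ± 8.98 in trisomics (SD, n = 5) and 18.1 ± 7.68 in tetrasomics (SD, n = 3). Among the members that gained mostly with the fourth copy were Zm00004b003965, Zm00004b004697 and Zm00004b005182. Zm00004b004697 had diploids at 15.2, 7.43, 10.5 and 8.46 CPM, trisomics at 8.14, 16.5, 14.5, 13.3 and 18.4, and tetrasomics at 26.8, 26.4 and 26.6. Its trisomics overlapped the diploids while its tetrasomics, nearly equal, lay above both. The members named in this paragraph were picked after their values were seen.

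In haploids the whole genome is present in 1 copy and 1L is in balance. The members' haploid minus diploid difference had a median of 0.08 (log2), like the 0.08 of the other candidates. Its quartiles were -0.30 and 0.26 in members, against -0.11 and 0.26, so only the lower side reached farther. The haploid mean was at least 2-fold below the diploid one in 7 members (17.5%) and in 1.35% of the other candidates. It was at least 2-fold above in 1 member, Zm00004b004512 (10.8 ± 4.68 CPM in diploids and 36.7 ± 9.93 in haploids; SD, n = 4 and 3), and in 3.91% of the others. Haploids and diploids both entered the rule, in separate differences, so no test was made.

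The 7 members low in haploids were Zm00004b004353, Zm00004b004451, Zm00004b005129, Zm00004b004205, Zm00004b004258, Zm00004b005128 and Zm00004b004596, with differences from -2.39 to -1.07. In Zm00004b005129 the haploids stood at 1.36, 2.23 and 1.60 CPM and the disomic haploids at 5.06 and 7.0, next to diploids between 4.29 and 6.17. In these libraries its CPM was alike at 2 copies of 1L in either genome. CPM is scaled to library totals, so transcript per cell cannot be compared between haploid and diploid genomes. In Zm00004b003702, by contrast, the disomic haploids stood at 178.9 and 170.3 CPM, above the tetrasomics at 141.9, 141.0 and 159.5, and the haploids at 65.2, 51.8 and 84.5 lay about the diploids. Over all members, disomic haploid minus tetrasomic had a median of 0.07 (log2) with a range from -1.64 to 1.04.

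**Figure D5:**
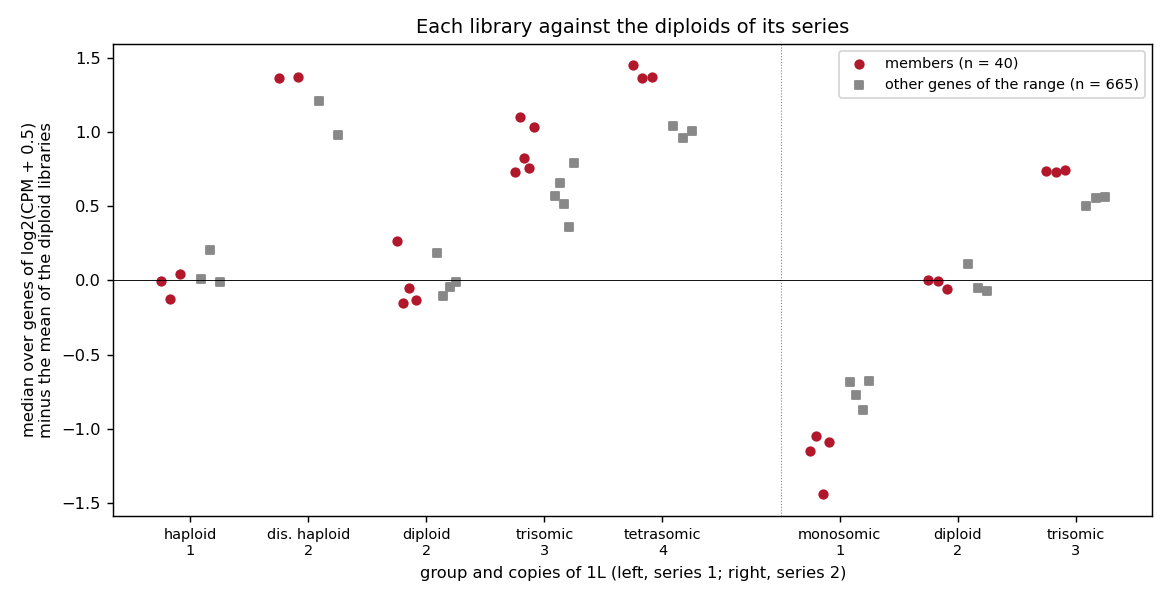
Median over the members (red) and over the other candidates (grey) of each library's log2(CPM + 0.5) minus the mean of the diploid libraries of its series, by group and copies of 1L. Members lie farther from the diploids than the other candidates in tetrasomics and monosomics, which the rule fixed. They also do so in disomic haploids. The rule favoured genes high in disomic haploids and genes low in series 1 diploids, in separate differences, so it favoured this distance too. In trisomics they lie at 0.73 to 1.10 in series 1 and 0.73 to 0.74 in series 2.

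Some high scores rested on libraries that differed within a dose. Zm00004b003818 had 0 counts in all 4 monosomic libraries and in series 2 diploid replicate 1, with 178 and 156 counts in the other diploids and 311 to 467 in trisomics. In series 1 it had 1 count in haploid replicate 2, against 332 and 344 in the other haploids, and 161 to 192 counts in diploids. Against a floor of 3 counts over the monosomic group, which covers counting error only, the summed diploid CPM was at least 144.5-fold higher. Both groups entered the rule, and diploid replicate 1 was itself at 0. The fold is therefore a description, and no response to dose is read from it. Zm00004b003818 was the only member with a library at 0, and none of the other candidates had one.

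Zm00004b003917 also had low libraries in these groups. Its series 2 diploids stood at 27.5, 110.9 and 120.7 CPM, with replicate 1 again low, and its monosomics between 12.8 and 22.5. Its haploids stood at 75.4, 13.1 and 103.7 CPM, with replicate 2 again low, and its disomic haploids at 36.7 and 274.7. Zm00004b004353 had haploids at 105.5, 149.9 and 36.0 CPM and disomic haploids at 63.2 and 937.8, so that a single library made its group difference. Disomic haploids and haploids did not overlap in 36 members (90%), diploids and monosomics in 37 (92.5%) and tetrasomics and diploids in 39 (97.5%), against 76.7%, 67.2% and 82.4% of the other candidates, and these are the groups the rule used. Monosomic replicate 3 was the lowest of its group in 19 members and monosomic replicate 1 in 16, against 42.4% and 16.8% of the other candidates.

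Gene length and level per length were not used by the rule. The gene length behind the deposited RPKM (reads scaled by gene length and library total) had a median of 3374.5 bases in members and 4476 in the other candidates. Per length, their median diploid level was 5.62 RPKM in series 1 and 7.48 in series 2, against 4.66 and 5.00 for the others. By diploid CPM they ranged from 3.35 to 511.8 in series 1. Their median SD between libraries (log2) was 0.32 in series 1 diploids, 0.33 in series 1 trisomics, 0.22 in tetrasomics and 0.31 in haploids, against 0.29, 0.32, 0.17 and 0.30 in the other candidates. It was 0.21 in disomic haploids, 0.35 in monosomics, 0.22 in series 2 diploids and 0.17 in series 2 trisomics, against 0.21, 0.32, 0.24 and 0.15.

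The diploids of the series differed by over 2-fold in 12 members (30%) and 14.3% of the other candidates. The widest were Zm00004b004139, at 10.7 ± 7.07 CPM in series 1 (SD, n = 4) and 67.1 ± 11.5 in series 2 (SD, n = 3), and Zm00004b004353, at 511.8 ± 286.4 and 95.3 ± 48.0. For Zm00004b004139 the trisomic log2 fold changes in series 1 and series 2 were 1.38 (SE 0.37, adjusted p = 0.0736 in edgeR) and 0.76 (SE 0.27, adjusted p = 0.367 in edgeR).

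The identifiers of the members ran from 3501 to 5261. The first, middle and last parts of the range, of equal size, held 15, 14 and 11 members, or 6.79, 6.42 and 4.14% of their candidates. There were 3 pairs of consecutive identifiers: Zm00004b003776 with Zm00004b003777, Zm00004b004462 with Zm00004b004463, and Zm00004b005128 with Zm00004b005129. In the last pair both genes stood high in series 2 trisomic replicate 2, at 26 and 31.1 CPM against 9.10 to 13.1 in the other trisomics. Both were low in monosomic replicate 3, at 1.42 and 1.06 CPM against 2.77 to 7.39. Whether neighbouring models share sequence or reads cannot be told from the tables.

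Which genes made the set depended on single libraries. Leaving out 1 library at a time kept between 27 and 39 of the 40 members. The fewest were kept without monosomic replicate 3 (27) and monosomic replicate 4 (29), and the most without diploid replicate 2 of series 1 (39).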

How the data were processed

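The members and the rule were chosen with earlier results of these data known. The authors deposited raw counts of whole reads and RPKM values. On the files, each RPKM equalled the count divided by a single length per gene and the library total. Per the submitters' processing notes, Bowtie, TopHat, Cufflinks and Cuffdiff were used, with no versions or roles; the genome build is not given in the sources used here. Library totals ran from 13199571 to 18923160 counts in series 1 and from 14115560 to 19860440 in series 2. Reads carry no molecular identifiers, so floors cover counting error only. The DNA table was not used here.

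Trisomics were tested against diploids in edgeR 4.0.16 (R 4.3.3) on the counts of all libraries of a series: TMM, filterByExpr, robust quasi-likelihood F-test, group as the only term, two-sided, Benjamini-Hochberg over all genes kept, called below 0.05. The filter kept 22435 and 21825 genes and all 40 members. Standard errors came from the F statistic and intervals from its t distribution (95%). The code was tested on simulated counts. Named members are the 6 highest scores, the 6 smallest p in series 1, the 4 largest and 4 smallest changes in series 2 and the last 2 inside the limit. Others were named after their values were seen. Alternatives used limma 3.58.1 and DESeq2 1.42.0. No pathway list could be used, since no identifier matched the reference table, and no sequence is given for the same reason. P-values measure only the spread between these libraries.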

Additional observations from a re-analysis of the deposited data

Results flagged for a closer look

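Of 57 sets of values tested for a library far from the rest of its group, 5 held one, where chance flags about 1 in 20. Diploid replicate 1 of series 1 was high for Zm00004b004205, at 15.9 CPM against 2.98 to 3.75 in the other diploids, and for Zm00004b003762, at 11.2 against 6.23 to 6.64. Trisomic replicate 1 of series 1 was low for Zm00004b004451, at 16.1 CPM against 32.8 to 39.4 in the other trisomics, and for Zm00004b003716, at 14.4 against 45.4 to 62.6. Trisomic replicate 2 of series 1 was high for Zm00004b003998, at 225.9 CPM against 169.8 to 180.2. Without diploid replicate 1, the series 1 trisomic change of Zm00004b004205 was 2.25 (log2, edgeR adjusted p = 0.0107), compared with 1.44 (adjusted p = 0.135) with all libraries.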

How the results depend on the processing

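Under the alternatives that used all libraries, the median log2 fold change in series 1 trisomics lay between 0.68 and 0.86. This range includes other sets of 40 genes, such as those chosen without the libraries compared, at 0.68, of which 29 were members. These values lay less than the spread between trisomic libraries away from the members' 0.82. With 1 library left out the members' median lay between 0.76 and 0.89. In series 2, where the trisomic libraries hardly differed, the members' median was 0.69. It became 0.71 with DESeq2, 0.71 with DESeq2 size factors in edgeR, 0.72 with TMM computed outside 1L and 0.67 with limma-trend. It was 0.70 without a count filter, 0.67 with the replicate block and 0.64 with the S number of the labels as a block. Genes chosen without the libraries compared, 10 of 40 being members, had a median of 0.65. Where those libraries were also left out of the CPM filter, 6 of 40 were members and the median was 0.59. With a CPM filter without trisomics, 36 of 40 were members and the median was 0.67. With 1 library left out the members' median ran from 0.64 to 0.78. The count of members called higher in series 1 was 11 and became 24 with DESeq2, 7 without a filter, 7 with the compared groups alone, 3 with the replicate block and from 1 to 21 with 1 library left out. In series 2 it was 0 and became 14 with DESeq2, 2 without a filter, 3 with the compared groups alone and 0 to 1 with 1 library left out. Among the 40 genes chosen for series 2 without the libraries compared, 1 was called higher, whether or not these were in the filter. That gene was not a member. The shares of other genes called were counted only for the counts of 11 and 0. Intervals above the copy ratio in series 2 numbered 2 and became 4 with DESeq2, 4 without a filter, 6 with the compared groups alone, 1 with the S number block and 1 to 3 with 1 library left out. The genes chosen without the libraries compared, both changed CPM filters, and leaving out the member with a library under 3 counts, were alternatives added after the data had been seen. The cause of these changes was not tested. For the single members named, over both series and all alternatives, the call stayed the same in 475 cases. It was lost in 38 and gained in 26, and the sign changed in 1. The printed cases of Zm00004b004451, Zm00004b004205 and Zm00004b003716 without 1 library are among those that gained a call. The member that changed sign was Zm00004b004847 in series 2, where leaving out 1 library gave -0.34 to 0.24. The value of 0.24 came without diploid replicate 2.

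Trisomics and diploids of the same replicate number correlated in their deviations from the group means with -0.20 to 0.02 in series 1 and 0.05 to 0.25 in series 2. So few correlations cannot show whether equal numbers pair the samples, and no conclusion is drawn from the blocked values. Changed rules kept between 27 (TMM-scaled CPM) and 38 (pseudocount 0.1) of the 40 members.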
